A study of Mus musculus with 96 samples.

Results

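The genes described here are the mitochondrial ribosomal protein genes of C2C12 cells, a mouse myoblast line that fuses into myotubes when serum is withdrawn. They were chosen by name, as the rows of the deposited count table whose symbol starts with Mrpl or Mrps and a digit, without pseudogenes, and with 16 counts or more in all replicates of some condition. The name matched 83 of 54150 rows, of which 5 were pseudogenes and none of the others fell below the count minimum, leaving 78 genes. By the role of their products, 26 encode proteins of the small subunit and 51 proteins of the large subunit. The remaining gene, Mrps36, carries the name but its product is a subunit of the 2-oxoglutarate dehydrogenase complex.

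The mitochondrial ribosome translates the few mRNAs of the mitochondrial genome, which encode core subunits of the respiratory chain and of the ATP synthase. Its RNAs are made in the matrix, while all of its proteins are encoded in the nucleus, translated in the cytosol and imported. Many of these proteins have bacterial homologues, and others are found only in mitochondria. Chloramphenicol binds the peptidyl transferase centre of the mitochondrial ribosome and blocks translation there, while piericidin, antimycin and oligomycin act on complex I, complex III and the ATP synthase. Mrpl12, a protein of the ribosomal stalk, also binds the mitochondrial RNA polymerase, and Mrpl58 has peptidyl-tRNA hydrolase activity.

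RNA from 96 samples in 35 conditions was sequenced. Control myoblasts were a lentiviral line with doxycycline-inducible luciferase, and the other myoblast lines carried LbNOX, a bacterial water-forming NADH oxidase, a matrix-targeted form of it called mitoLbNOX, or the yeast NADH dehydrogenase NDI1. All 4 lines received 300 ng/ml doxycycline from 24 hours before treatment and were grown in 10% dialyzed fetal bovine serum. Treatment lasted 10 hours with DMSO or with piericidin at 0.5 µM, antimycin at 0.5 µM or oligomycin at 1 µM, or, at lower density and with uridine, DMSO or 20 µg/ml chloramphenicol for 48 hours. Myotubes were untransduced C2C12 cells after 4 days in 2% dialyzed horse serum, and the day 1 cells had spent 24 hours in that medium. Myotubes were treated for 10 hours with the same inhibitors, or with the uncoupler BAM15 at 0.5 µM, some of them in 5% oxygen, where they had been kept from the previous night, and further myotubes were transduced with adenovirus carrying GFP or LbNOX. Groups held 3 samples, except for GFP myotubes, NDI1 myoblasts and the groups treated for 48 hours, which held 2. Nothing states that replicates came from separate cultures, so that p-values measure the spread between these samples, which may be technical.

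Libraries held 6458295 to 15366745 counts, with a median of 10336588.5. The markers told myoblasts from the low-serum states but did not order those states: Myog, the myogenic regulator of differentiation, had a mean of 0.437 CPM, the counts scaled to a fixed library size, in DMSO control myoblasts, 1550 on day 1 and 748 in myotubes, while Mki67, a proliferation marker, was at 112, 20.1 and 12.9 CPM. The muscle genes Acta1, Ckm and Myh3 were about as high on day 1 (6319, 611 and 1943 CPM) as in myotubes (6129, 551 and 1950 CPM), and Myf5, a myoblast marker, was at 11.2, 18.7 and 8.88 CPM, highest on day 1. Of the markers of other cell types, Pecam1 was at 1.79 to 2.51 CPM and Epcam was listed at 0 in these 3 groups. Below, levels are CPM scaled by the trimmed mean of M values (TMM) over all samples, differences are log2 fold changes with their standard errors (SE), and a gene was called when its adjusted p was under 0.05 by edgeR's quasi-likelihood test over all genes of the comparison.

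In DMSO control myoblasts the mean levels of the 78 genes ran from 2.63 CPM for Mrpl23 to 138 CPM for Mrps6, with a median of 43.4 CPM. Per kilobase of exon, the highest of the genes described below were Mrps6 at 90.2, Mrpl18 at 82.9 and Mrpl12 at 81.1 CPM per kb. Together the 78 genes took 0.391% ± 0.0078 (SD, n = 3) of the counts in these cells, 0.308% ± 0.0067 (SD, n = 3) on day 1 and 0.290% ± 0.0045 (SD, n = 3) in untransduced myotubes. In DMSO myotubes with GFP or LbNOX virus the share was above that of day 1, at 0.336% (n = 2) and 0.317% (n = 3). Exons of 33 members share bases with another gene, and the libraries did not keep strand, so that reads of those stretches may belong to either gene.

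The genes on which the results turn are Mrps18b, Mrpl18, Mrpl57, Mrps6 and Mrpl12. Mrps18b (ENSMUSG00000024436, chr17:35910379-35916389, minus strand of GRCm38) encodes a small-subunit protein, a paralogue of Mrps18a and Mrps18c. Mrpl18 (ENSMUSG00000057388, chr17:12911349-12916345, minus strand) encodes a large-subunit protein of the bacterial L18 family, for which a cytosolic isoform has been described in heat-shocked cells. Mrps6 (ENSMUSG00000039680, chr16:92058270-92112227, plus strand) and Mrpl57 (ENSMUSG00000021967, chr14:57826234-57829296, plus strand) encode a small-subunit and a large-subunit protein, and Mrpl12 (ENSMUSG00000039640) lies at chr11:120484613-120489065 on the plus strand.

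The promoters of 4 of these genes are shown because 3 of them were called with chloramphenicol and Mrpl12 was among the genes that differed most between myoblasts and myotubes. Each line holds the 250 bases before the RefSeq start on GRCm38.p6, read 5′ to 3′ along the gene, with capitals marking a match to a searched motif. They are chr17:35916441-35916690 (minus strand) for Mrps18b, chr17:12916092-12916341 (minus strand) for Mrpl18, chr14:57825989-57826238 (plus strand) for Mrpl57 and chr11:120484387-120484636 (plus strand) for Mrpl12. The Ensembl gene used for counting starts upstream of the RefSeq start for Mrpl18, Mrpl57 and Mrpl12, and the stretch shown for Mrpl18 lies inside it.
Mrps18b: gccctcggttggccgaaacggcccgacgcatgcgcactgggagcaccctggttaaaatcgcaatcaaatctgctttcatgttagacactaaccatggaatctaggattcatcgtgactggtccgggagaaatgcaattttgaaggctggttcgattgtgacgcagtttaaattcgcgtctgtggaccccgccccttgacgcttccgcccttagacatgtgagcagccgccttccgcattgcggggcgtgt
Mrpl18: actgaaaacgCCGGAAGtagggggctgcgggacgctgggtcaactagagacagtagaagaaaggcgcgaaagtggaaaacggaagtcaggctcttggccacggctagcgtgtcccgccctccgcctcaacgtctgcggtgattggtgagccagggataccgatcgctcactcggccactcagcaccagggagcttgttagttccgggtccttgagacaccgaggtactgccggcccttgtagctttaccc
Mrpl57: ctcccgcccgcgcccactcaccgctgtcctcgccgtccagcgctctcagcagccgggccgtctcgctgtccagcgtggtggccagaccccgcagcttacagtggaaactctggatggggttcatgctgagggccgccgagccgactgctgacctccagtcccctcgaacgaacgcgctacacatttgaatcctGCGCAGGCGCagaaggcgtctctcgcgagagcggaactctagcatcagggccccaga
Mrpl12: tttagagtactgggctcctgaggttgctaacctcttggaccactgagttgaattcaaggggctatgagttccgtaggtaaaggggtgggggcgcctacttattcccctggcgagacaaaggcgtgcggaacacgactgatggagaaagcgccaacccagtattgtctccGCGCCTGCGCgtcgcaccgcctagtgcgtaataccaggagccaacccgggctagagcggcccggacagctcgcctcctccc

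The capitals mark the motif of NRF1, a regulator of nuclear genes for mitochondrial proteins, in Mrpl12 and Mrpl57, and an ETS motif, the element bound by GABP, in Mrpl18, while the stretch shown for Mrps18b holds no match. Past the start, in bases not shown, the ETS motif was also found at position 44 for Mrps18b and position 5 for Mrpl57. Motifs were searched on both strands in windows from 250 bases before to 50 bases after the RefSeq start, which 69 of the 78 members and 27025 genes in all had. The NRF1 motif, read as GCGCA, then any base (N), then GCGC, was found in 13 members, or 18.8% of their windows against 4.78% of all windows, and the ETS motif CCGGAAG in 25 members, 36.2% against 9.12%. The YY1 motif AAGATGGC was found in 12 members, 17.4% against 2.88%. The E-box CACGTG, which Myc and other factors bind, was found in 5 members, 7.25% against 7.24%, and the CARE motif TGATGNAA, bound by ATF4, in none of the 69 against 4.06% of all windows. A match describes these letters and is no evidence of binding.

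The first comparison asked how the genes differed between untreated states. Most mitochondrial ribosomal protein genes were lower in myotubes than in control myoblasts, and 5 of them, Mrps6, Mrpl20, Mrpl18, Mrpl12 and Mrps18b, fell by 0.93 to 2.02 on the log2 scale. Of the 78 members, 3 were called higher and 49 lower, where 35.9% of all genes tested were called higher and 33.6% lower. The median log2 fold change of the members was -0.30, against 0.04 for all 12704 genes. Small-subunit genes gave 1 higher and 17 lower of 26 and large-subunit genes 2 higher and 31 lower of 51, with medians of -0.36 and -0.28. These are differences in the share of RNA per bulk sample, in which fewer cells of a type and less RNA per cell cannot be told apart. The states also differed in serum, in doxycycline and in the luciferase transgene, and those cannot be told apart from the state.

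Mrps6 was measured at 145, 132 and 138 CPM in control myoblasts, at 46.5, 51.2 and 46.0 CPM on day 1 and at 35.6, 30.3 and 34.0 CPM in myotubes. The 3 groups did not overlap, and the myotubes were lowest. The difference between myotubes and myoblasts was -2.02 (SE 0.08, adjusted p = 9.18e-18) on the log2 scale, and day 1 cells differed from myoblasts by -1.48. Mrps6 shares 159 exon bases on the same strand with Slc5a3, which encodes a myo-inositol transporter and whose log2 difference between myotubes and myoblasts was -1.99 (SE 0.08), so that reads of the shared stretch could belong to either gene. A further 305 exon bases on that strand are shared with Gm49711, for which no level is given here.

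Mrpl12 was at 118, 126 and 128 CPM in control myoblasts and at 65.6, 55.1 and 56.3 CPM in myotubes. The day 1 cells, at 56.3, 58.6 and 65.9 CPM, overlapped the myotubes and lay well below the myoblasts. Its log2 difference in myotubes was -1.04 (SE 0.08, adjusted p = 6.84e-12). Mrpl18 was at 124, 114 and 109 CPM in myoblasts, at 57.1, 60.8 and 56.1 CPM on day 1 and at 55.7, 54.3 and 52.0 CPM in myotubes, a log2 difference of -1.06 (SE 0.06, adjusted p = 1.28e-13). Mrps18b was at 83.2, 77.6 and 77.2 CPM in myoblasts and at 43.6, 40.0 and 37.6 CPM in myotubes. For both of these genes every low-serum sample was below every myoblast sample.

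Mrpl20, a large-subunit protein with a bacterial homologue, was at 98.3, 93.3 and 95.6 CPM in myoblasts and at 41.4, 46.9 and 40.7 CPM in myotubes, a log2 difference of -1.11 (SE 0.08, adjusted p = 1.49e-12). Its promoter window holds an E-box at position -33. Mrpl33, another bacterial-type protein of the large subunit, went the other way and was at 45.9, 39.8 and 43.7 CPM in myoblasts, at 43.3, 45.2 and 45.0 CPM on day 1 and at 57.3, 60.7 and 56.2 CPM in myotubes. Only the myotubes stood above the other groups for this gene, and the log2 difference was 0.47 (SE 0.10, adjusted p = 0.000116). Mrpl24 was also called higher in myotubes, by 0.24 (SE 0.08, adjusted p = 0.00793), a call that was lost without replicate 2 (adjusted p = 0.33) and without the filter on low counts.

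**Figure D1:**
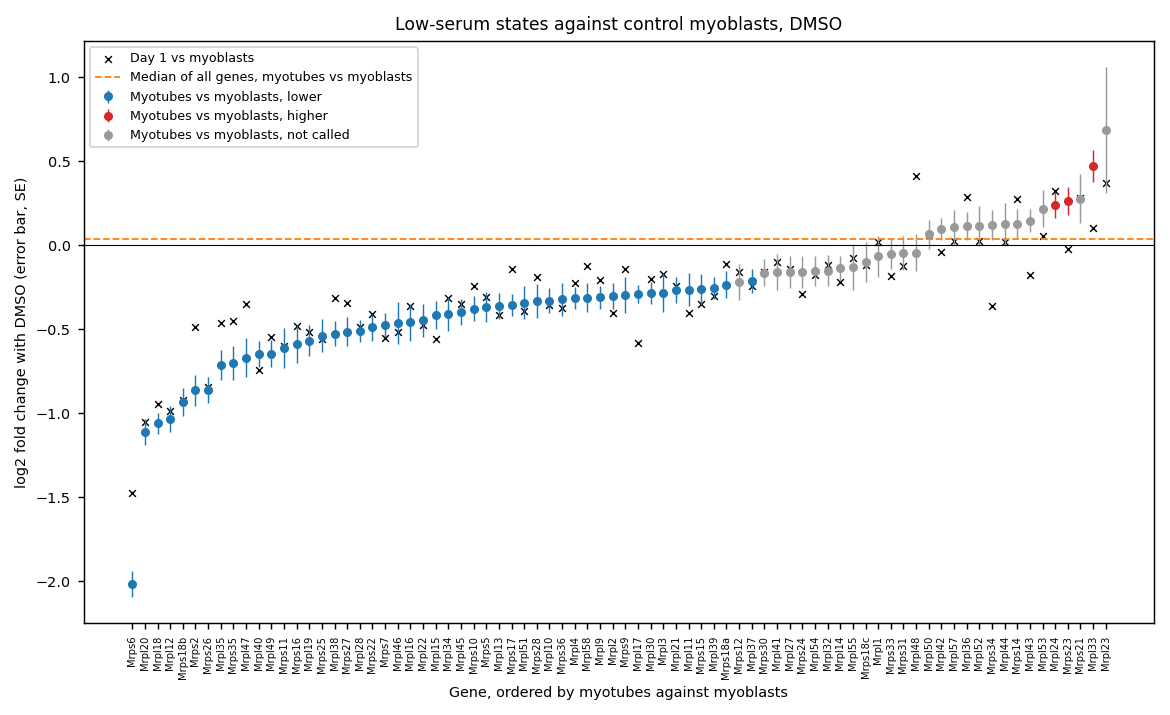
Log2 fold change with its SE (vertical axis) of each of the 78 genes (horizontal axis, ordered) in DMSO myotubes against DMSO control myoblasts, with crosses for day 1 cells against the same myoblasts and a dashed line at the median of all genes. Points lie below 0 for most genes, Mrps6 is lowest at -2.02, and most crosses lie close to their points, although Mrps6, Mrps2 and Mrpl48 differ between the 2 states.

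Day 1 cells gave similar counts. Against control myoblasts, 4 members were called higher and 47 lower (33.6% and 30.0% of all genes), with a median of -0.27 for the members. Both comparisons use the same myoblast samples. Between myotubes and day 1 cells, 5 members were called higher and 7 lower, where 36.6% of all genes were called in either direction. The genes that differed there were Mrps34, Mrpl33, Mrpl43, Mrpl17 and Mrps23, higher in myotubes by 0.29 to 0.48, and, among the lower ones, Mrps6 (-0.54) and Mrpl48 (-0.46). Of its exon bases, Mrps34 shares 63.42% with Mapk8ip3 on the opposite strand and 36.97% with Nme3 on the same strand. Mrpl43 shares 33.36% with Twnk on the opposite strand. The count of called members fell to 7 without replicate 2 (4 higher and 3 lower), it was 4 and 13 on library totals, and the direction turned under several other settings.

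Most of these differences were small. In myotubes against myoblasts the median size of the log2 difference was 0.31 over the members and 0.63 over all genes, and 4 members (5.13%) were called with a change of at least 1 on the log2 scale, against 32.0% of all genes. These values describe the list, which was not tested against other genes. Cytosolic ribosomal protein genes gave 1 higher and 71 lower of 83, with a median of -0.48. Complex I subunit genes moved in the opposite direction, with 24 higher and none lower of 36 and a median of 0.32.

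Genes that act on the mitochondrial ribosome were mixed. Of 24 assembly factor genes tested, 3 were higher and 9 lower in myotubes, among them Fastkd2, an RNA-binding protein of large-subunit assembly (-0.96, SE 0.12), the pseudouridine synthase gene Rpusd4 (-0.83, SE 0.15) and the GTPase gene Noa1 (-0.71, SE 0.11), while Ybey, an endoribonuclease gene, was higher (0.80, SE 0.16). Translation factors gave 5 higher and 6 lower of 15, with the elongation factor genes Gfm1 (-0.58, SE 0.07) and Tsfm (-0.49, SE 0.07) among the lower. Regulators gave 2 higher and 4 lower of 10. Myc differed by -1.40 (SE 0.07), Nrf1 by -1.13 (SE 0.12) and Tfam, the mitochondrial transcription factor, by -0.50 (SE 0.09), while Ppargc1a, a coactivator of mitochondrial genes in muscle, was higher by 3.34 (SE 0.67) from a level of 0.309 CPM. Gadd45gip1 and Dap3, mitochondrial ribosomal proteins with other names, were lower by -0.47 (SE 0.10) and -0.39 (SE 0.09).

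The next comparisons asked what inhibiting the respiratory chain or the ATP synthase did in myoblasts. Relative to the median of all genes, which TMM scaling holds near 0, each of the 3 inhibitors raised more mitochondrial ribosomal protein genes than it lowered, and with libraries scaled to their totals alone the balance turned. Mrps18b was at or near the top and Mrpl18 at the bottom with each of them. Mrps18b was higher by 1.40, 1.36 and 0.90 on the log2 scale with piericidin, antimycin and oligomycin, and Mrpl18 was lower by 1.18, 1.45 and 0.93. With piericidin 34 members were called higher and 18 lower, where 30.9% and 30.8% of all genes were (61.7% in either direction). Antimycin gave 34 higher and 22 lower (32.1% and 31.1% of all genes, 63.2% in all) and oligomycin 31 higher and 13 lower (24.5% and 26.3%). The members' medians were 0.13, 0.16 and 0.11, against values within 0.02 of 0 over all genes. Scaled to library totals without TMM, piericidin gave 21 higher and 36 lower, antimycin 12 and 37 and oligomycin 20 and 21, with members' medians of -0.11, -0.14 and -0.02 against -0.24, -0.30 and -0.15 over all genes. Counts on library totals, here and below, carry no share of all genes unless one is printed. The median of all genes moves with that scaling, so that a turned balance cannot be ascribed to the members. The 3 comparisons share their DMSO samples, and all 3 of those samples came from outer wells of the plate. With the outer or inner well as a covariate, 51, 56 and 46 members were called. Without replicate 2 the antimycin count was 43, with 20 higher and 23 lower.

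Mrps18b was at 83.2, 77.6 and 77.2 CPM with DMSO, at 208, 220 and 185 CPM with piericidin, at 198, 199 and 195 CPM with antimycin and at 150, 152 and 137 CPM with oligomycin. Every treated sample was above every DMSO sample, and the oligomycin samples were below those of the other inhibitors. The log2 differences had an SE of 0.06 each, with adjusted p = 1.07e-18, 1.94e-18 and 8.56e-14. Antimycin and piericidin differed by -0.04 (SE 0.06, adjusted p = 0.626), and both exceeded oligomycin, by 0.46 (SE 0.06) and 0.50 (SE 0.06). Of the other members of its paralogue group, Mrps18a was called higher with piericidin (0.21, a call lost without any 1 of the replicates and with no filter on low counts) and with antimycin (0.40), both lost on library totals, and Mrps18c was called lower with antimycin (-0.33). Mrps18b shares 638 exon bases with Gm16279 on the opposite strand, a gene whose level did not pass the count minimum.

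Mrpl18 was at 124, 114 and 109 CPM with DMSO, at 50.3, 48.5 and 51.4 CPM with piericidin, at 41.9, 42.1 and 39.2 CPM with antimycin and at 65.7, 60.0 and 55.5 CPM with oligomycin. The 4 groups did not overlap, with antimycin lowest. The log2 differences had an SE of 0.06 each, with adjusted p = 3.98e-17, 2.47e-19 and 1.44e-14. Mrpl18 shares 141 exon bases with Tcp1, which encodes a subunit of the cytosolic chaperonin, lies on the opposite strand and was at 716 CPM in these cells. The log2 differences of Tcp1 were 0.16, 0.02 and 0.27 with piericidin, antimycin and oligomycin.

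**Figure D2:**
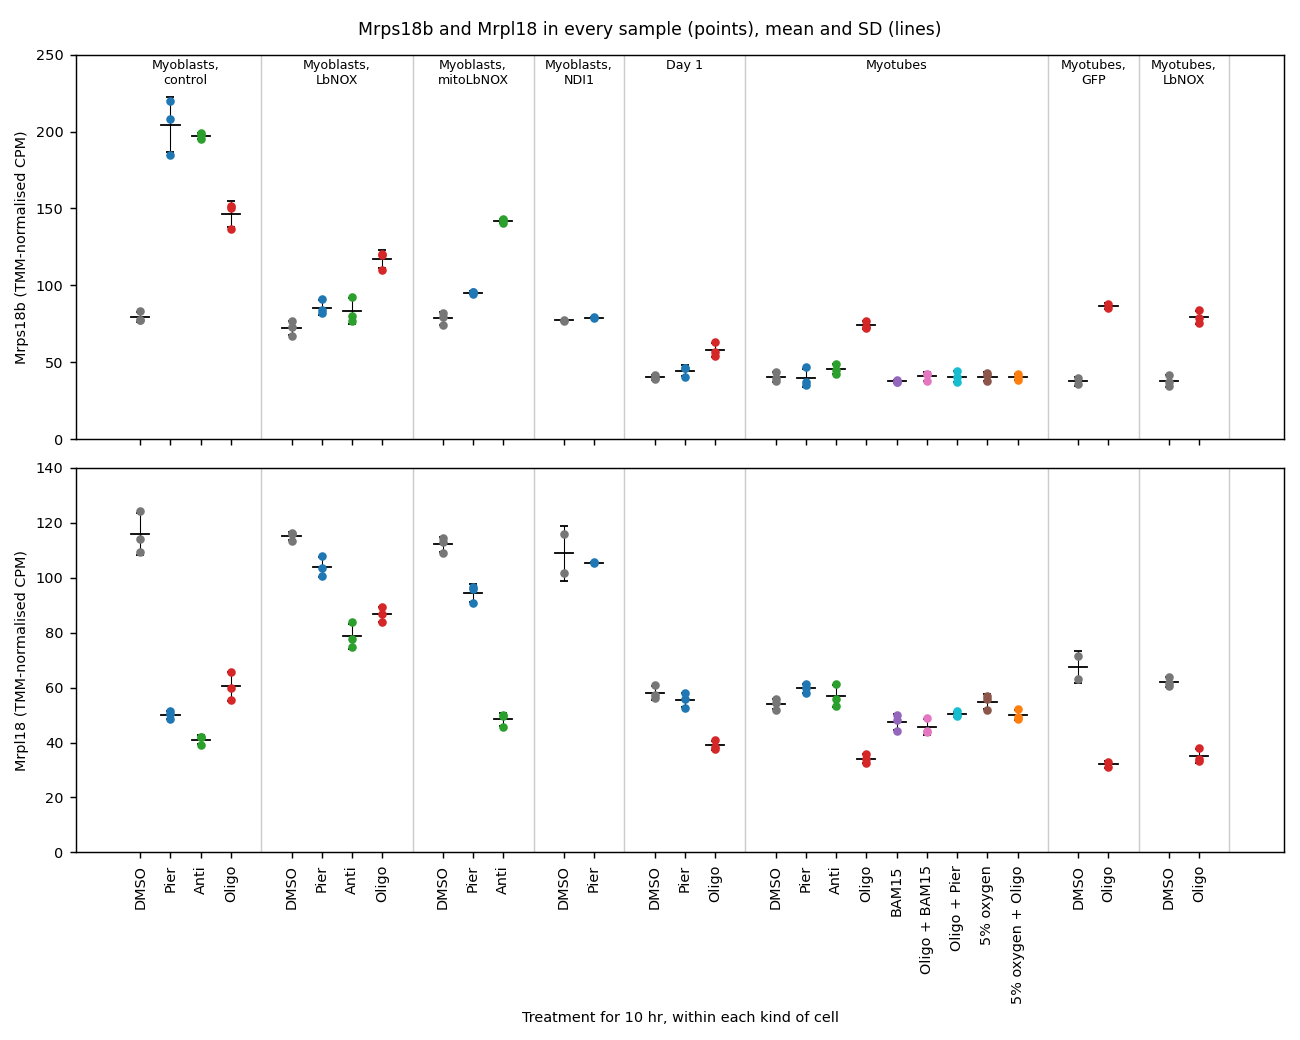
TMM-normalised CPM (vertical axes, from 0) of Mrps18b (top) and Mrpl18 (bottom) in samples treated for 10 hours with DMSO, piericidin (Pier), antimycin (Anti), oligomycin (Oligo) or BAM15, or with DMSO in 5% oxygen from the previous night, by kind of cell, with the mean and SD as lines. The piericidin samples of GFP and LbNOX myotubes are not drawn. Mrps18b reaches 220 CPM in control myoblasts with piericidin and stays at 78.7 and 79.5 CPM in NDI1 myoblasts, and Mrpl18 is lower in most groups where Mrps18b is higher. For Mrps18b, oligomycin given alone and outside 5% oxygen separates from DMSO in every kind of myotube, and piericidin does not in untransduced myotubes.

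Other members that rose with the inhibitors belong to both subunits. Mrps30, which sits in the large subunit of mammalian mitochondria in spite of its name, was at 37.4, 45.3 and 42.5 CPM with DMSO, at 71.4, 76.4 and 71.8 CPM with piericidin, at 87.9, 82.2 and 79.2 CPM with antimycin and at 70.3, 67.8 and 72.3 CPM with oligomycin. Its log2 differences were 0.84, 1.04 and 0.76 (SE 0.07 each), and no treated sample overlapped the DMSO samples. Mrpl24, a bacterial-type protein of the large subunit, was at 35.7, 31.1 and 34.8 CPM with DMSO and at 75.4, 74.2 and 74.5 CPM with oligomycin, a log2 difference of 1.16 (SE 0.08, adjusted p = 8.15e-14), and differed by 0.82 and 0.48 with piericidin and antimycin. Mrps22, a mitochondria-specific protein of the small subunit, was higher by 0.93 with piericidin and 0.78 with oligomycin (SE 0.08 each). Mrpl12 was higher by 0.41, 0.40 and 0.39 (SE 0.05 each), and the call with antimycin was lost on library totals (adjusted p = 0.0645).

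Several members separated the inhibitors from each other. Mrpl50, a mitochondria-specific protein of the large subunit, was at 43.2, 47.3 and 48.0 CPM with DMSO, at 92.7, 95.7 and 104 CPM with piericidin, at 50.4, 57.5 and 53.4 CPM with antimycin and at 68.5, 63.1 and 57.3 CPM with oligomycin. Piericidin was above every other group, and antimycin differed from piericidin by -0.85 (SE 0.07, adjusted p = 4.2e-11). Mrpl49 was at 66.3, 68.9 and 66.0 CPM with DMSO, at 46.8, 41.6 and 49.2 CPM with piericidin and at 28.2, 32.5 and 30.0 CPM with antimycin, where the log2 difference was -1.11 (SE 0.08). Mrpl36 was at 30.1, 32.6 and 30.1 CPM with DMSO, at 17.5, 17.5 and 14.2 CPM with antimycin and at 34.7, 37.8 and 37 CPM with oligomycin. Antimycin lay below DMSO and oligomycin above it for this gene, and the difference between antimycin and oligomycin was -1.12 (SE 0.08, adjusted p = 1.88e-13).

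In control myoblasts Mrpl57 was called with oligomycin only, at 30.5, 23.9 and 28.1 CPM with DMSO and 49.2, 45.1 and 44.7 CPM with oligomycin (0.77, SE 0.10, adjusted p = 2.35e-07). Piericidin and antimycin differed from oligomycin for this gene by -0.55 and -0.56 (SE 0.10 each). Mrps36, whose product is not a ribosomal protein, was lower by -0.42, -0.39 and -0.52 (SE 0.09 each) with the 3 inhibitors. Mrpl58 was higher by 0.28, 0.47 and 0.33, where the calls with piericidin and antimycin were lost on library totals, and Mrps12, a bacterial-type protein of the decoding centre, was called lower with antimycin (-0.58). Between inhibitors, antimycin gave 14 members higher and 21 lower than piericidin (37.2% of all genes called) and 18 higher and 28 lower than oligomycin (26.1% and 23.9%), and piericidin gave 16 higher and 15 lower than oligomycin (39.2%). On library totals, for which no share of all genes is given, these were 3 and 28, 8 and 41, and 11 and 22. The first of these counts fell to 19 without replicate 1, 23 without replicate 2 and 20 without replicate 3.

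Most responses to the inhibitors were small as well. The median size was 0.28, 0.33 and 0.24 over the members with piericidin, antimycin and oligomycin, and 0.49, 0.51 and 0.37 over all genes. A change of at least 1 on the log2 scale was called for 3 members (3.85%) with piericidin, 4 (5.13%) with antimycin and 1 (1.28%) with oligomycin, against 20.4%, 22.7% and 12.6% of all genes. Large-subunit genes gave 24 higher and 9 lower of 51 with piericidin, and small-subunit genes 10 higher and 8 lower of 26. The share of all counts taken by the members was 0.378% ± 0.0035 (SD, n = 3) with piericidin, 0.349% ± 0.0067 (SD, n = 3) with antimycin and 0.395% ± 0.0090 (SD, n = 3) with oligomycin. Against 0.391% with DMSO it was lower with antimycin and piericidin, without overlap, which runs against the balance of calls after TMM scaling. The TMM factors over all 96 samples, used for the levels, were 0.851 to 0.903 in these samples and 1.01 to 1.03 with DMSO. The calls used factors computed within their own fit, which are not given here.

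Cytosolic ribosomal protein genes gave 67, 72 and 64 higher of 83 for piericidin, antimycin and oligomycin and 5, 1 and 2 lower. Assembly factor genes gave 9 higher and 2 lower with piericidin, among them Trmt61b, an rRNA methyltransferase gene (2.06, SE 0.26), Rpusd4 (1.34, SE 0.10) and the rRNA methyltransferase gene Mrm3 (1.10, SE 0.14). With oligomycin 13 were higher and 2 lower, with Mtg1 (1.01, SE 0.14) and Gtpbp10 (0.98, SE 0.16), GTPases of large-subunit assembly, at the top. Myc was higher by 1.89, 2.50 and 1.61 (SE 0.06 each). The 13 mitochondrial mRNAs gave none higher and 7 lower with piericidin, 2 higher and 10 lower with antimycin, and 1 in each direction with oligomycin.

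The lines carrying LbNOX, mitoLbNOX and NDI1 asked how these responses changed when NADH was oxidised by another enzyme. With piericidin, few members or none were called in those lines, and Mrps18b differed from DMSO by 0.27, 0.30 and 0.06 in LbNOX, mitoLbNOX and NDI1 myoblasts. LbNOX myoblasts gave 7 members higher and 1 lower with piericidin (8.87% of all genes called, 5.01% higher and 3.86% lower) and mitoLbNOX myoblasts 6 higher and 2 lower (11.2%). The former were 5 and 2 on library totals. NDI1 myoblasts gave none in either direction by edgeR (0.00835% of all genes), none by DESeq2, and 3 at an unadjusted p under 0.05, of which 1 was higher and 2 were lower, where 8.39% of all genes passed. Without replicate 2 the LbNOX count was 1 and the mitoLbNOX count 1, without replicate 1 they were 5 and 4, and without replicate 3 the latter was 2.

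Mrps18b was at 72.7, 76.9 and 67.4 CPM in DMSO LbNOX myoblasts and at 84.1, 90.9 and 81.8 CPM with piericidin, and in NDI1 myoblasts it was at 77.3 and 77.1 CPM with DMSO and 78.7 and 79.5 CPM with piericidin. The LbNOX groups did not overlap but were close, and the 4 NDI1 samples lay between 77.1 and 79.5 CPM. The response was smaller than in control myoblasts by -1.13 (SE 0.08) with LbNOX, by -1.10 (SE 0.08) with mitoLbNOX and by -1.34 (SE 0.09) with NDI1, each tested as an interaction (adjusted p = 2.3e-12, 5.38e-12 and 7.27e-13). For Mrpl18 the interactions had the opposite sign, at 1.05 (SE 0.08), 0.95 (SE 0.08) and 1.16 (SE 0.09). The 3 interactions share the control myoblast samples. Over all members, 13 were called with a higher and 23 with a lower response in LbNOX myoblasts (44.3% of all genes called), 15 and 24 in mitoLbNOX myoblasts (42.8%) and 13 and 28 in NDI1 myoblasts (42.7%). On library totals, for which no share of all genes is given, the balance turned, to 24 and 17, 28 and 12, and 27 and 12. Without replicate 2 these counts were 23 for LbNOX and 20 for NDI1, and without replicate 1 the NDI1 count was 24.

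With antimycin the lines differed. LbNOX myoblasts gave 30 members higher and 8 lower (46.1% of all genes called) and mitoLbNOX myoblasts 32 higher and 9 lower (47.7%), which were 18 and 18, and 22 and 18, on library totals. Mrps18b was at 92.7, 77.1 and 80.0 CPM in LbNOX myoblasts and at 143, 141 and 142 CPM in mitoLbNOX myoblasts with antimycin, where the DMSO samples of the latter were at 82.0, 79.2 and 74.2 CPM. The mitoLbNOX samples lay between the LbNOX samples and those of control myoblasts. The interaction was -1.12 (SE 0.08, adjusted p = 2.22e-12) for LbNOX and -0.46 (SE 0.08, adjusted p = 7.94e-05) for mitoLbNOX. For Mrpl18 it was 0.94 (SE 0.08) and 0.28 (SE 0.08), with samples at 74.9, 83.7 and 77.5 CPM in LbNOX and 49.9, 49.8 and 45.6 CPM in mitoLbNOX myoblasts. Mrpl57 was called with antimycin in mitoLbNOX myoblasts, at 24.4, 28.6 and 28.9 CPM with DMSO and 50.5, 45.5 and 45.1 CPM with antimycin (0.83, SE 0.10, adjusted p = 7.27e-08), and the interaction was 0.62 (SE 0.15, adjusted p = 0.00159).

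Other members also differed in their response to antimycin with LbNOX. Mrps6 was lower by -0.82 (SE 0.05, adjusted p = 2.31e-14) in LbNOX myoblasts and by -0.08 (SE 0.05, adjusted p = 0.169) in control myoblasts, and the interaction was -0.75 (SE 0.07). Mrpl49 had the called interaction of largest size, 1.33 (SE 0.12, adjusted p = 5.6e-11), followed by Mrps18b with the value given above, the large-subunit gene Mrpl40 (1.02, SE 0.09) and the small-subunit gene Mrps14 (1.01, SE 0.13). Mrps18c, called lower in control myoblasts, was called higher in LbNOX myoblasts by 0.52 (SE 0.10), with an interaction of 0.85 (SE 0.15). In all, 24 members had a higher and 20 a lower response in LbNOX myoblasts (51.5% of all genes called), and 21 and 10 in mitoLbNOX myoblasts (31.7%). The mitoLbNOX count was 13 without replicate 1. On library totals, for which no share of all genes is given, the 2 lines gave 32 and 13, and 36 and 2. The mitochondrial mRNAs gave none higher and 10 lower of 13 with antimycin in LbNOX myoblasts, with a median of -1.37.

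With oligomycin few members had a called difference between the lines. In LbNOX myoblasts 31 members were higher and 6 lower (35.2% of all genes called), or 18 and 11 on library totals. Mrps18b was at 121, 110 and 120 CPM and Mrpl24 differed from DMSO by 0.94 (SE 0.08). Only 3 members had a called interaction (7.98% of all genes), Mrpl18 at 0.54 (SE 0.08), Mrpl43 at 0.41 (SE 0.12) and Mrps30 at -0.35 (SE 0.11). Without replicate 2 or 3 that count was 1. For Mrps18b the interaction was -0.18 (SE 0.08, adjusted p = 0.223).

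**Figure D3:**
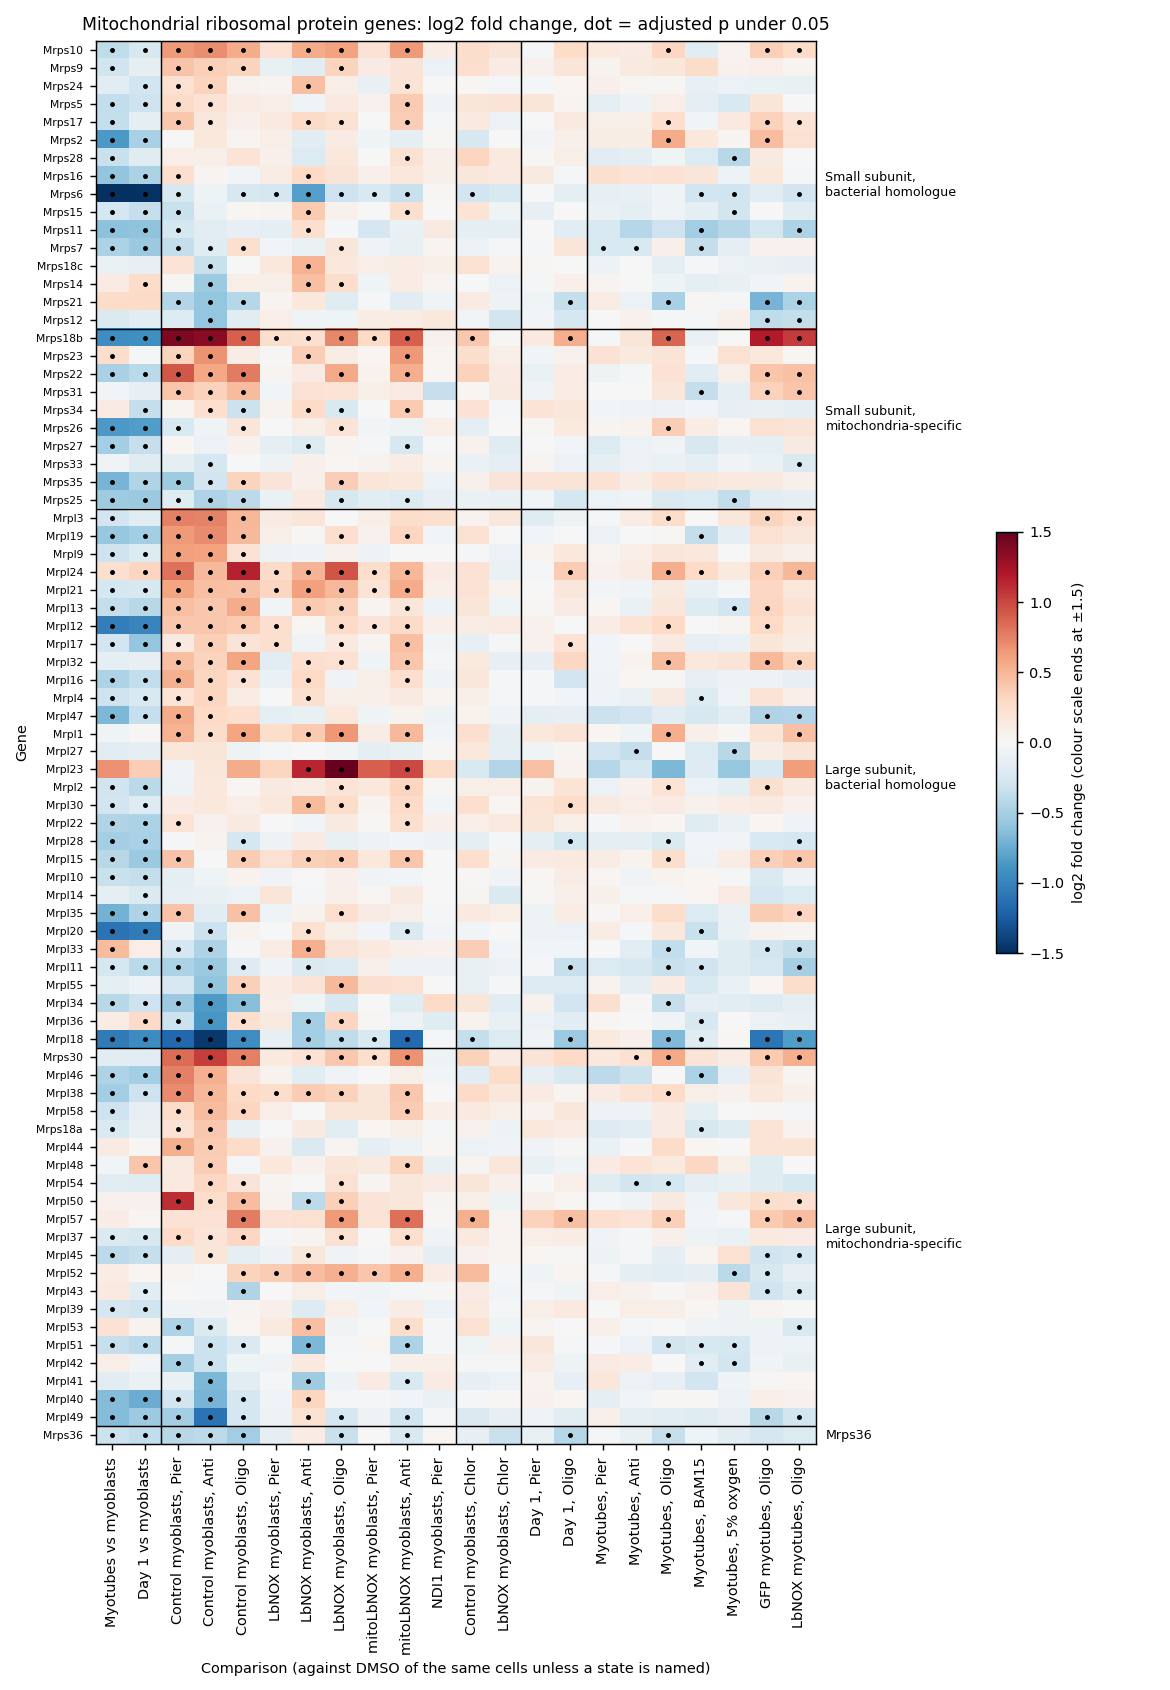
Log2 fold change (colour, ends at ±1.5) of the 78 genes (rows, grouped by subunit and by whether a bacterial homologue is known, ordered within groups by the antimycin response) in 22 comparisons (columns), with a dot where the adjusted p was under 0.05. Pier, Anti, Oligo and Chlor stand for piericidin, antimycin, oligomycin and chloramphenicol. The columns of both low-serum states are mostly blue, the inhibitor columns of control myoblasts hold both colours, the NDI1 piericidin column has no dot, and Mrps18b and Mrpl18 hold opposite colours in every oligomycin column shown.

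Chloramphenicol, which blocks the mitochondrial ribosome itself, was given for 48 hours. In control myoblasts 2 members, Mrpl57 and Mrps18b, were called higher and 2, Mrpl18 and Mrps6, lower, where 4.83% of all 11704 genes tested were called higher and 3.62% lower. The members' share does not exceed that of all genes. When libraries were scaled to their totals without TMM, the calls of Mrpl57 and Mrps18b were lost (adjusted p = 0.0726 and 0.0679). In LbNOX myoblasts none was called (0.931% of all genes) by edgeR or DESeq2, and 3 were lower at an unadjusted p under 0.05, where 12.8% of all genes passed. DESeq2 called 3 members in control myoblasts. The median was 0.09 over the members in control myoblasts, with 54 of 78 values above 0, and -0.02 in LbNOX myoblasts, with 32 above 0. The median and the share above 0 over all genes are not given here, so that no shift of the members can be read from these values. At an unadjusted p under 0.05, 15 members were higher and 2 lower in control myoblasts, where 23.2% of all genes passed in either direction. Each group held 2 samples.

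Mrps18b was at 72.4 and 68.5 CPM with DMSO and at 91.6 and 88.7 CPM with chloramphenicol in control myoblasts, and at 80.9 and 69.2 against 74.1 and 75.2 CPM in LbNOX myoblasts. The chloramphenicol samples lay above the DMSO samples in control myoblasts and between them in LbNOX myoblasts. The log2 difference was 0.41 (SE 0.09, adjusted p = 0.0316) in the former and 0.02 (SE 0.10, adjusted p = 0.95) in the latter, and the interaction was -0.39 (SE 0.13, adjusted p = 0.373). The call was lost with the outer or inner well as a covariate (adjusted p = 0.0574).

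Mrpl57 was at 23.5 and 24.5 CPM with DMSO and at 34.7 and 32.2 CPM with chloramphenicol in control myoblasts, a log2 difference of 0.53 (SE 0.12, adjusted p = 0.0325), and at 27 and 32.5 against 27.4 and 32.4 CPM in LbNOX myoblasts. DESeq2 did not call it (adjusted p = 0.053). Mrpl18 was at 120 and 119 CPM with DMSO and at 93.2 and 88.0 CPM with chloramphenicol in control myoblasts, and at 118 and 130 against 101 and 110 CPM in LbNOX myoblasts. The groups did not overlap in either line, and the log2 differences were -0.35 (SE 0.07, adjusted p = 0.0195) and -0.20 (SE 0.07, adjusted p = 0.312). This call was kept under every alternative that could be fitted. Mrps6 was at 152 and 150 against 117 and 122 CPM in control myoblasts, a log2 difference of -0.29 (SE 0.07, adjusted p = 0.0310) that was not called when only these groups entered the fit (adjusted p = 0.0563) or with the replicate block (adjusted p = 0.0590).

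No member had a called difference in response between the lines (0.530% of all genes) by edgeR or DESeq2, and 5 had a lower response in LbNOX myoblasts at an unadjusted p under 0.05, where 10.1% of all genes passed. The share of counts taken by the members was 0.377% with DMSO and 0.370% with chloramphenicol in control myoblasts, and 0.375% and 0.369% in LbNOX myoblasts (n = 2 each).

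**Figure D4:**
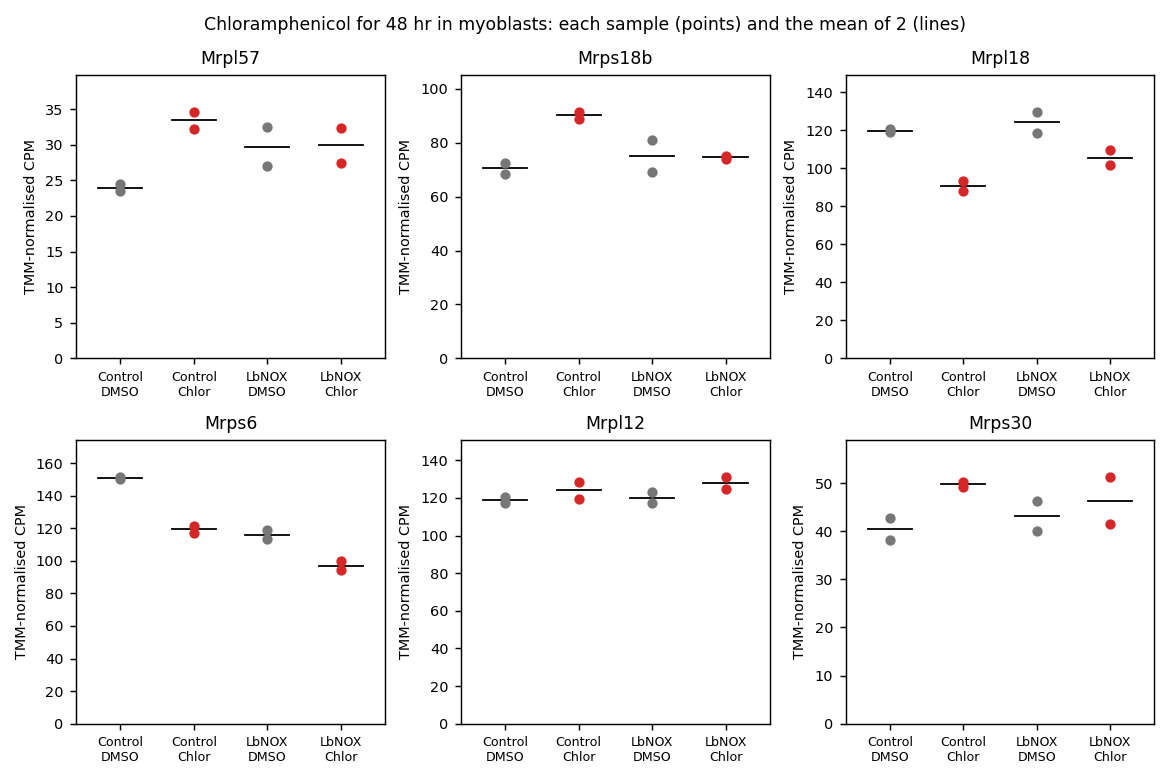
TMM-normalised CPM (vertical axes, from 0) of 6 genes in each myoblast sample after 48 hours with DMSO (grey) or chloramphenicol (Chlor, red) in control and LbNOX lines, with the mean of 2 as a line. Mrpl57 and Mrps18b separate in control myoblasts and overlap in LbNOX myoblasts, and for Mrpl18 and Mrps6 the chloramphenicol samples lie below the DMSO samples in both, a difference called in control myoblasts only. Mrpl12 and Mrps30 were not called in either line.

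Other lists were counted in the same comparison. Of the 13 mitochondrial mRNAs, which the inhibited ribosome translates, 6 were called higher and 1 lower, with mt-Nd3 (1.45, SE 0.09), mt-Nd2 (0.88, SE 0.09) and mt-Atp8 (0.59, SE 0.08) higher and mt-Co1 lower (-0.76, SE 0.07). In LbNOX myoblasts 4 were higher and 2 lower, with mt-Co1 at -0.74 (SE 0.07) and mt-Nd3 at 0.73 (SE 0.09). Cytosolic ribosomal protein genes gave 61 higher and 1 lower of 83 in control myoblasts, with a median of 0.34, and 3 higher and none lower in LbNOX myoblasts. None of 24 assembly factor genes was called in either line. Of the translation factors Lrpprc, which stabilises mitochondrial mRNAs, was called higher in control myoblasts (0.46, SE 0.08), and Chchd1, a small-subunit protein with another name, was higher by 0.53 (SE 0.10).

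In myotubes, piericidin and antimycin left nearly all members uncalled, and oligomycin moved Mrps18b and Mrpl18 in the same directions as in myoblasts. Piericidin gave 1 call, Mrps7 (-0.23, SE 0.07), where 8.99% of all genes were called, and none by DESeq2 or without replicate 1 or 3. Antimycin gave 1 higher, Mrps30, and 3 lower, Mrpl27, Mrpl54 and Mrps7 (12.9% of all genes), of which none was called without replicate 1 or without replicate 2 and 1 without replicate 3. On library totals Mrpl54 and Mrps7 were not called with antimycin. Oligomycin gave 15 higher and 9 lower (33.3% of all genes), and 14 in all without replicate 2 or 15 without replicate 3.

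Mrps18b was at 43.6, 40.0 and 37.6 CPM in DMSO myotubes, at 35.5, 46.7 and 37 CPM with piericidin, at 48.8, 42.5 and 45.1 CPM with antimycin and at 72.0, 73.3 and 76.9 CPM with oligomycin. Only the oligomycin samples stood clear of DMSO, with a log2 difference of 0.88 (SE 0.09, adjusted p = 2.51e-08). Mrpl18 was at 55.7, 54.3 and 52.0 CPM with DMSO and at 32.4, 35.8 and 34.1 CPM with oligomycin, a difference of -0.66 (SE 0.07, adjusted p = 2.19e-08). The responses were compared between states as interactions. For Mrps18b the response in myotubes was smaller by -1.43 (SE 0.12) with piericidin and -1.16 (SE 0.12) with antimycin, and the difference was -0.02 (SE 0.11, adjusted p = 0.941) with oligomycin. For Mrpl18 the 3 values were 1.31, 1.54 and 0.27 (SE 0.09 each).

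Across members, 9 had a higher and 32 a lower response to piericidin in myotubes than in control myoblasts (46.9% of all genes called), 13 and 22 to antimycin (48.5%) and 3 and 9 to oligomycin (29.2%). On library totals, for which no share of all genes is given, the balance turned with each, to 24 and 14, 32 and 4, and 11 and 2. Without replicate 2 the counts for piericidin and oligomycin were 23 and 4, the former was 27 without replicate 1 and the latter 5 without replicate 3. With oligomycin the called interactions of largest size were Mrpl24 (-0.61, SE 0.11), Mrps22 (-0.56, SE 0.11) and the small-subunit gene Mrps2 (0.53, SE 0.13). Mrps2 was higher with oligomycin in myotubes by 0.56 (SE 0.08). Assembly factor genes gave 8 higher and none lower of 24 with oligomycin in myotubes, with Mrm3 (1.01, SE 0.18) and Gtpbp10 (0.91, SE 0.15) among them, and Myc was higher by 1.74 (SE 0.09).

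When oligomycin was combined with BAM15, piericidin or low oxygen, Mrps18b was lower than with oligomycin alone. It was at 37.5, 42.7 and 42.1 CPM with oligomycin and BAM15, at 44.3, 40.2 and 37.3 CPM with oligomycin and piericidin, and at 42.6, 38.4 and 40.3 CPM with oligomycin in 5% oxygen. All of these samples were below the oligomycin samples and in or near the range of DMSO. The log2 differences from oligomycin alone were -0.86, -0.87 and -0.86 (SE 0.09 each, adjusted p = 4.06e-08, 5.42e-08 and 3.59e-08), and they share the oligomycin samples. Mrpl18 was at 44.2, 43.9 and 49.1 CPM, at 50.1, 49.6 and 51.4 CPM and at 49.3, 48.7 and 52.3 CPM in these groups, above oligomycin alone by 0.42, 0.56 and 0.57 (SE 0.07 each). Those samples lay between oligomycin and DMSO, with the highest of them in the range of DMSO.

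Of the 3 additions to oligomycin, BAM15 gave the most lower calls among the members. Against oligomycin alone, 2 members were higher and 31 lower with BAM15 (26.1% of all genes called, 14.1% lower), 4 and 15 with piericidin (20.9%) and 7 and 16 in 5% oxygen (33.3%), the last of which were 4 and 27 on library totals. With BAM15 the large-subunit genes gave 22 lower of 51 and the small-subunit genes 9 lower of 26, Mrpl1 differed by -0.72, Mrps2 by -0.57 and Mrpl12 by -0.50, and the median size was 0.20 over the members against 0.21 over all genes. The counts without replicate 1 were 20, 11 and 13, without replicate 2 the latter pair were 6 and 12, and without replicate 3 the count with piericidin was 11.

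On their own, BAM15 and low oxygen gave members called in either direction at a smaller share than over all genes, nearly all of them lower. BAM15 gave 1 higher and 14 lower (25.4% of all genes called, 12.2% lower), with a median of -0.11. Mrps7, a bacterial-type protein of the small subunit, was at 48.8, 46.7 and 41.9 CPM with DMSO and at 37.5, 34.1 and 35.4 CPM with BAM15, without overlap (-0.35, SE 0.07, adjusted p = 0.00041). Mrpl24 was the gene called higher (0.29, SE 0.07). In 5% oxygen none was higher and 9 were lower (22.1% of all genes called, 9.78% lower), with Mrpl27 at -0.42 (SE 0.10) and Mrps25 at -0.37 (SE 0.09). Mrps25 shares 69.8% of its exon bases with Nr2c2 on the opposite strand. Without replicate 2 the counts for BAM15 and 5% oxygen were 4 and 3, without replicate 1 they were 6 and 4, and without replicate 3 they were 7 and 5. On library totals 15 members were lower in 5% oxygen. Of the 13 mitochondrial mRNAs, 10 were lower with BAM15 and 7 in 5% oxygen.

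Oligomycin was tested against DMSO in 6 settings that share no samples, namely control and LbNOX myoblasts, day 1 cells, and untransduced, GFP and LbNOX myotubes. Oligomycin in 5% oxygen was not tested against DMSO in 5% oxygen, and its Mrps18b samples, given above, were in or near the range of DMSO myotubes. Mrps18b, Mrpl24 and Mrpl57 were called higher in all 6, which is 3.85% of the members against 5.16% of 11036 genes tested in all, and Mrpl18 was called lower in all 6, 1.28% against 2.51%. On library totals Mrpl24 was no longer called higher in all 6, and Mrpl11 joined Mrpl18 as lower in all 6, 2.56% against 3.44% of genes. These shares do not exceed the background. A further 4 members, Mrpl15, Mrpl32, Mrps10 and Mrps30, were higher in 5 of the 6, Mrps21 was lower in 5, and 21 members were called in none. The shares of all genes called in 5 or in none were not taken, so that these counts cannot be set against the background. In GFP myotubes 16 members were higher and 9 lower (25.9% of all genes called, and 7 and 12 members on library totals), in LbNOX myotubes 14 and 14 (32.0%) and in day 1 cells 5 and 5 (20.7%), or 4 and 7 on library totals.

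The sizes for Mrps18b were 1.19 (SE 0.09) in GFP myotubes, 1.05 (SE 0.08) in LbNOX myotubes and 0.55 (SE 0.08) in day 1 cells, and for Mrpl18 they were -1.08 (SE 0.09), -0.84 (SE 0.07) and -0.55 (SE 0.07). In GFP myotubes Mrps18b was at 39.8 and 35.7 CPM with DMSO and at 87.9 and 85.4 CPM with oligomycin, and in LbNOX myotubes at 42.0, 37.1 and 34.6 against 83.8, 78.9 and 75.5 CPM. On day 1 it was at 39.3, 39.5 and 42.0 against 56.5, 54.0 and 63.0 CPM. The groups were apart in each setting. The counts over members were less stable, at 3 in GFP myotubes without replicate 1 or 2, which leaves 1 sample an arm, at 13, 14 and 17 in LbNOX myotubes and at 6, 6 and 4 in day 1 cells without replicate 1, 2 and 3. Piericidin on day 1 gave no call among the members by edgeR or DESeq2 (2.75% of all genes called), and 3 were higher at an unadjusted p under 0.05, where 15.7% of all genes passed.

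Antimycin was given in 4 settings without shared samples, control, LbNOX and mitoLbNOX myoblasts and myotubes. Only Mrps30 was called higher in all 4 (1.28% of members against 1.94% of genes), a call lost in LbNOX myoblasts on library totals (adjusted p = 0.328), and none was lower in all 4 (1.19% of genes). The Mrps30 call in myotubes was also lost without replicate 1, without replicate 2 and without the filter on low counts. In the 3 myoblast lines alone, 14 members were higher in each, 17.9% against 9.54% of all genes, among them Mrps10, Mrpl21 and Mrpl38, and 3 were lower in each, 3.85% against 8.53%. The 3 lower ones were Mrpl18, Mrpl41 and Mrpl51. On library totals 5 members were higher in each of these lines, 6.41% against 4.61% of all genes, and 8 were lower in each, 10.3% against 15% of all genes.

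**Figure D5:**
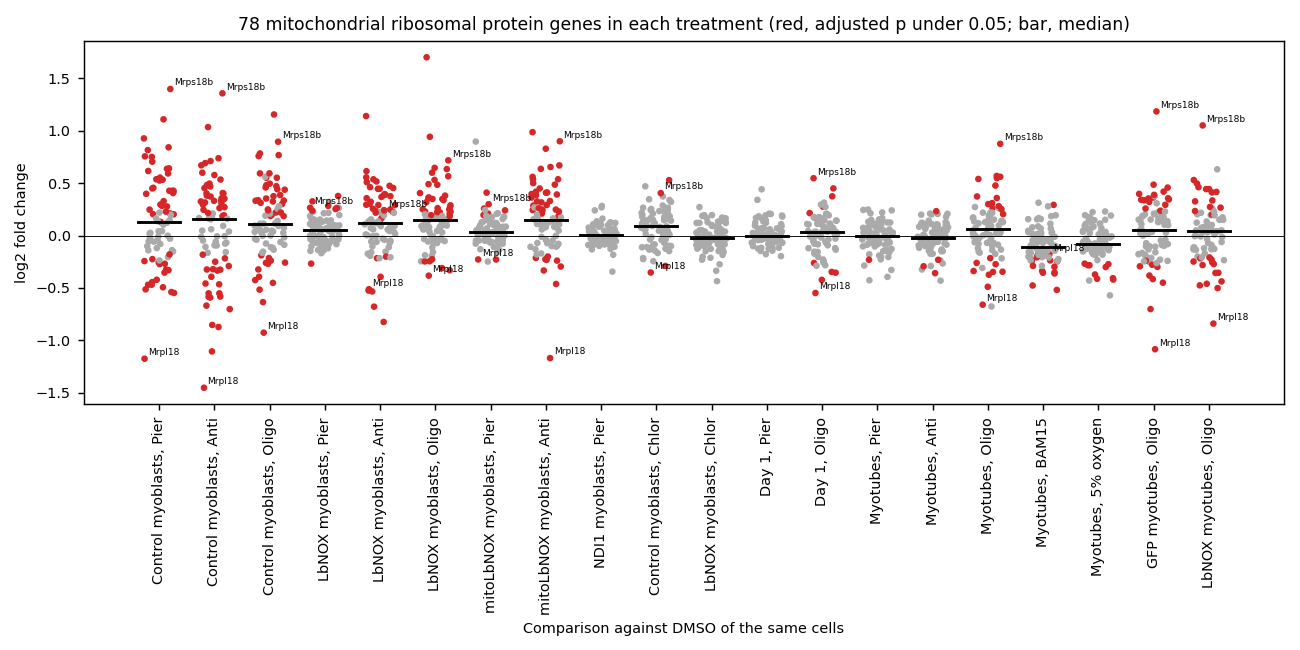
Log2 fold change (vertical axis) of each of the 78 genes (points) in 20 treatments (horizontal axis), red where the adjusted p was under 0.05, with a bar at the median. Mrps18b and Mrpl18 are named where called. They lie at or near opposite ends with each inhibitor in control myoblasts and with oligomycin in each of the 6 settings shown, while medians stay between -0.11 and 0.16.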

How the data were processed

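Total RNA (50 ng) was made into polyA-primed Smart-seq2 libraries, which do not keep strand, and sequenced as paired reads of 37 bases. The authors pseudoaligned the reads with kallisto 0.44 with bias correction to the Ensembl 93 transcripts of GRCm38 (mm10) and the transgenes, summed transcripts to genes with tximport and added up the runs of each library. The deposited values are estimated counts per gene, rounded to whole numbers, for 54146 Ensembl genes and 4 transgenes. A pseudoalignment splits reads between genes that share sequence, so that members with shared exons are less certain.

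All samples were used. None of the 87 pairs of replicates held identical values. The members and the gene lists were chosen with earlier results of these data known. Levels were CPM after TMM scaling over all 96 samples. Comparisons were fitted in 6 groups of samples with edgeR 4.0.16 (R 4.3.3), with its quasi-likelihood F test, the Benjamini-Hochberg adjustment over all genes of a comparison and a threshold of 0.05, after keeping genes with 16 counts or more in all replicates of some condition of the fit. The SE was taken as the size of the log2 difference over the root of its F statistic. There were 39 comparisons, of which the differences in response were interaction terms.

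Genes were named by rule, as up to 5 per direction with the largest called change, a mean of at least 5 CPM and groups that did not overlap, plus 9 genes named throughout. For a gene named by rule, groups without overlap in that comparison were a condition of naming and lend its call no further weight. The other members named in an interaction or as examples were chosen after their values were seen. Alternatives were the DESeq2 1.42.0 Wald test, its size factors in edgeR, no filter, fits of only the groups compared, the outer or inner well as a covariate, a replicate block and leaving out each replicate number. Scaling to library totals without TMM was added after the data were seen. On simulated counts for the piericidin comparison, 93 of 100 genes changed by 1 on the log2 scale and 40 of 100 changed by 0.5 were recovered, and 85 and 23 of 100 for chloramphenicol, with 2 samples a group. For the LbNOX interaction with piericidin 76 and 15 of 100 were recovered, and for oligomycin on day 1 95 and 46. The simulation set the same spread for every gene and did not take it from the data. Same-numbered samples did not deviate together (mean correlation of residuals -0.0413 to 0.0537 over the 6 fits), so that the numbers were not taken as pairs. Gene positions are those of the GRCm38 annotation and promoters those of RefSeq on GRCm38.p6. Intervals and tests cover these samples and counting error only.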

Additional observations from a re-analysis of the deposited data

Results flagged for a closer look

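The differences in response between states and between lines were each tested as an interaction, and the number of members called is given here. Between myotubes and control myoblasts, 41 of 78 members differed in the response to piericidin (46.9% of all genes did), 35 to antimycin (48.5%) and 12 to oligomycin (29.2%), and without replicate 2 the first and last of these counts were 23 and 4. Between LbNOX and control myoblasts, 36 differed with piericidin (44.3% of all genes), 44 with antimycin (51.5%) and 3 with oligomycin (7.98%). Between mitoLbNOX and control myoblasts, 39 differed with piericidin (42.8%) and 31 with antimycin (31.7%), and between NDI1 and control myoblasts 41 differed with piericidin (42.7%). Without replicate 2 the LbNOX and NDI1 counts with piericidin were 23 and 20, and without replicate 1 the mitoLbNOX count with antimycin was 13. The comparisons of one inhibitor share the control myoblast samples.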

How the results depend on the processing

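Counts of called members within 1.5 times the reported count and with the same leading direction were obtained in 39 of 39 comparisons with DESeq2 size factors and with the replicate block (53 members in myotubes against myoblasts under the block), in 35 with the DESeq2 Wald test, 21 without the filter, 30 with only the groups compared, 35 with well position and 25 with library totals without TMM, an alternative added after the data were seen. The well could not be fitted on day 1, and leaving out a replicate could not be done for chloramphenicol, which leaves no residual degrees of freedom. Among genes named throughout or by rule, no call changed sign. Without the filter more genes are tested, and leaving out samples lowers the number of replicates; the cause of other changes was not tested.

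Myotubes against day 1 (12) gave 7 without the filter, 9 with DESeq2, 7 with well position and 8 with only these groups, each with more higher than lower calls, and 7 to 9 leaving out a replicate. Piericidin against oligomycin (31) gave 28 with DESeq2 (13 higher, 15 lower), and the LbNOX difference with oligomycin (3) gave 5 (2 higher, 3 lower). Without the filter the counts were 24 (piericidin, myotubes against myoblasts), 17 (antimycin against piericidin), 4 and 22 (LbNOX myoblasts, piericidin and oligomycin), 23, 24 and 26 (piericidin differences for LbNOX, mitoLbNOX and NDI1), 2 (mitoLbNOX, piericidin), 17 (antimycin difference for mitoLbNOX), and, in myotubes, 0, 0, 15 and 5 (piericidin, antimycin, oligomycin, BAM15), 11 and 15 (oligomycin with piericidin, and in 5% oxygen, against oligomycin), 16 (GFP) and 16 (LbNOX). With only the groups compared they were 22 (antimycin against piericidin), 4 and 5 (piericidin in LbNOX and mitoLbNOX), and, in myotubes, 0, 2 and 8 (piericidin, antimycin, BAM15), 14 (oligomycin in 5% oxygen) and 16 (GFP). Piericidin in myotubes gave 0 with DESeq2, and BAM15 gave 9 with well position.

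On library totals the leading direction turned for piericidin, antimycin and oligomycin in control myoblasts (57, 49 and 41 called), for piericidin against oligomycin (33), for the state differences with the 3 inhibitors (38, 36 and 13), for the piericidin differences with LbNOX, mitoLbNOX and NDI1 (41, 40 and 39) and for oligomycin in GFP myotubes (19). Totals moved the median of all genes by more than 0.1 in most of these, since TMM factors differed between the groups. The counts moved to 2 with chloramphenicol in control myoblasts, 2 with antimycin in myotubes and 15 in 5% oxygen.

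Without replicate 1, 2 and 3, the count stayed within 1.5 times and kept its leading direction in 19, 16 and 22 comparisons. The leading direction turned in 2, 5 and 2. Leaving out each replicate number gave 23 to 28, 27 to 31 and 4 to 8 for the state differences with piericidin, antimycin and oligomycin, and 45 to 47, 43 to 52 and 34 to 37 for these inhibitors in control myoblasts. It gave 19 to 23 for antimycin against piericidin, 33 to 38 for antimycin against oligomycin and 21 to 25 for piericidin against oligomycin. In LbNOX myoblasts it gave 1 to 6, 27 to 31 and 25 to 28, with differences of 23 to 30, 35 and 1 to 2, and in mitoLbNOX myoblasts 1 to 4 and 30 to 34, with differences of 26 to 30 and 13 to 23. The NDI1 difference was 20 to 34. In myotubes it gave 0 to 1, 0 to 1, 14 to 22, 4 to 7 and 3 to 5 for piericidin, antimycin, oligomycin, BAM15 and 5% oxygen, 20 to 22, 6 to 11 and 12 to 16 for the additions of BAM15, piericidin and 5% oxygen to oligomycin, 3 to 20 for GFP and 13 to 17 for LbNOX, and 4 to 6 for oligomycin on day 1. Where 1 sample was left in a group of 2, it was assumed to vary like the other groups. Myotubes against myoblasts gave 47 to 52.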

Other observations

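Piericidin was also given to GFP and LbNOX myotubes, which entered no comparison above. Mrps18b was at 48.3 and 45.9 CPM in GFP myotubes with piericidin, against 39.8 and 35.7 CPM with DMSO, and at 48.2, 42.7 and 43.4 CPM in LbNOX myotubes against 42.0, 37.1 and 34.6 CPM. Mrpl18 was at 67.2 and 75.6 CPM in GFP myotubes with piericidin against 71.6 and 63.3 CPM with DMSO, so that these samples overlapped. The piericidin samples of Mrps18b lay above the DMSO samples in both lines, a difference that was not tested, while in untransduced myotubes they overlapped.

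Mrpl23, the least abundant member, fell below the level for naming and was looked at because of its large values. It was at 2.25, 0.97 and 3.21 CPM in DMSO LbNOX myoblasts and at 6.13, 7.58 and 6.47 CPM with oligomycin, without overlap, where edgeR gave a log2 difference of 1.70 (SE 0.40, adjusted p = 0.001). It was not called with oligomycin in the other 5 of the 6 settings without shared samples, where the log2 differences ran from -0.68 in untransduced myotubes to 0.63 in LbNOX myotubes, and the interaction with control myoblasts was 1.14 (SE 0.56, adjusted p = 0.245).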
